A study of Solanum lycopersicum with 10 samples.

Results

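The ripening of the tomato exocarp, the skin of the fruit, was followed from the mature green to the red ripe stage by RNA-seq. The comparison was made on 4 libraries of 10, chosen by tissue and stage from the sample labels: 2 of mature green exocarp and 2 of red ripe exocarp. Fruits were of the cultivar given in the labels as "cv. Alisa Craig", with no transgene or treatment named for any of these samples. According to the methods of the study, the green fruits were 30 days past anthesis and the red ones 7 days past the breaker stage. The 6 other libraries were of mesocarp at the same stages and of leaves pooled from both stages, with 2 replicates each, and they entered the fit and served as reference. The study set out to find promoters active in the skin, and the question of this comparison is which transcripts of the skin changed in level as it ripened.

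Tomato is a climacteric fruit, in which ethylene sets off ripening. Chloroplasts then turn into chromoplasts, chlorophyll is lost, lycopene accumulates, cell walls are loosened and sugars, acids and aroma compounds change. The exocarp consists of the epidermis with its cuticle and the cell layers just beneath it, and it is the first barrier of the fruit against water loss and pathogens. The mesocarp is the fleshy wall under it.

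Both stages were sequenced to similar depth. The mature green exocarp libraries held 38373229 and 38261394 counts and the red ripe exocarp libraries 37758064 and 40391408, within the range of 30945619 to 45637676 over all 10 libraries. In these 4 libraries, 3 counts, taken here as the smallest level that can be told from 0, corresponded to 0.0743 to 0.0784 CPM, which scales counts by the size of the library, a limit that covers counting error only. The table listed 35288 genes, of which 34075 carried a Solyc identifier and 1213 were loci without annotation. Only 13 identifiers could be paired with a gene name, those of 12 skin candidates and of SlACTIN given in the study, so other genes are described by their chromosome, rank and values.

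The mature green exocarp replicates were less alike than those of any other tissue. Of the 11630 genes that averaged 10 CPM or more in the tissue, here after trimmed-mean (TMM) scaling, 414 (3.56%) differed by at least 2-fold between the 2 green exocarp libraries, and 353 of these were higher in replicate 2. In red ripe exocarp this held for 78 of 10721 genes (0.728%), in green mesocarp for 6 and in red mesocarp for 3. Of the 353 genes higher in green replicate 2, 235 were called lower in red exocarp, 23 were called higher and 95 were not called. The number of calls and the candidate genes that moved most without green replicate 2 are therefore also given below without it. With 2 replicates, which of them departs from the tissue cannot be told. Zeros in the table need care as well. Each exocarp library listed between 13734 and 14184 genes at 0 but between 181 and 218 at 1 count, and 16 genes were at 0 in 1 green exocarp library and at 100 counts or more in the other, with up to 1901 counts. A listed 0 may thus not mean that no transcript was there.

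Ripening changed the level of most genes measured in the skin. Of 22801 genes tested, 14108 (61.9%) were called at an adjusted p-value under 0.05, 6767 (29.7%) higher and 7341 (32.2%) lower in red ripe than in mature green exocarp (edgeR quasi-likelihood test, Benjamini-Hochberg adjustment). Large falls were more numerous than large rises. At least 2-fold rises numbered 3480 (15.3%) and at least 2-fold falls 5236 (23%), and at least 10-fold rises numbered 997 (4.37%) and at least 10-fold falls 2124 (9.32%). Of the 10-fold changes, 389 rises and 948 falls were in genes with over 3 counts in all 4 exocarp libraries. The median log2 fold change was 1.03 among the genes that rose and −1.85 among those that fell, and 3287 of the rises and 2105 of the falls were smaller than 2-fold. The libraries of the stages did not overlap for 6755 of the genes that rose and 7327 of those that fell, nor for 3298 genes that were not called. Over all genes tested there was no overlap for 17380 (76.2%). A call with 2 libraries against 2 largely implies it, so it adds little to the calls. Without green replicate 2, 13704 genes were called, 6651 higher and 7053 lower.

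**Figure D1:**
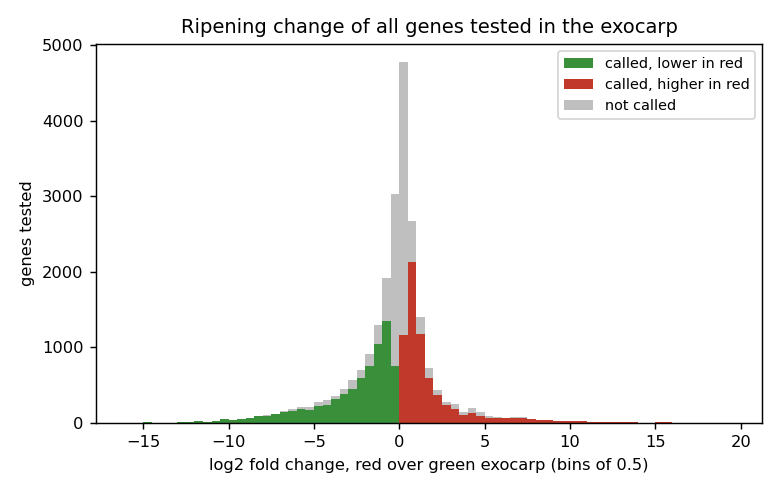
Number of genes tested (y axis) by log2 fold change of red ripe over mature green exocarp (x axis, bins of 0.5), coloured by whether the gene was called higher, called lower or not called at an adjusted p under 0.05. The tail of falls is the heavier, with 2124 called falls of at least 10-fold against 997 such rises, and the grey bars near 0 include 1177 genes listed at 0 in all 4 exocarp libraries.

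The balance of rises and falls depended on the scaling of the libraries. With TMM scaling the median log2 fold change of all genes tested was 0, and 48% of the calls were rises. With scaling to total counts this median moved to −0.28, and 4755 genes were called higher against 9306 lower, so that 33.8% of the calls were rises. In bulk tissue, fewer cells of a type and less RNA per cell cannot be told apart.

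The mRNA of the ripe skin was concentrated in fewer genes. In the mature green libraries, 1271 and 1243 genes made up 50% of the counts, and in the red ripe libraries 686 and 658 genes did so. The 10 most abundant genes took 4.72 and 4.91% of the counts in green and 11.3 and 11.9% in red exocarp, and the most abundant gene took 0.818 and 0.866% against 2.44 and 2.61%. The stages did not overlap in any of these measures. The shift was not particular to the skin. In mesocarp, 1345 and 1374 genes made up 50% of the green counts and 726 and 733 genes of the red counts. The 10 most abundant genes of mesocarp took 4.86 and 4.73% in green and 11.95 and 11.95% in red. In leaves, 674 and 670 genes made up 50% of the counts. Genes that were called higher in red exocarp held 28.8 and 27.5% of the green counts and 70.6 and 71.7% of the red counts, while genes called lower went from 52.9 and 53.7% to 14.6 and 13.8%. These last shares follow from the calls and are given as a description.

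**Figure D2:**
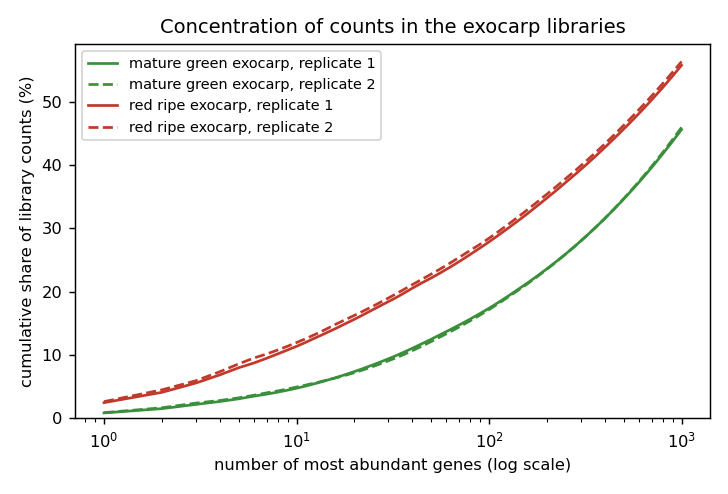
Cumulative share of the counts of a library (y axis, percent) against the number of most abundant genes included (x axis, log scale) for the 4 exocarp libraries. Both red ripe libraries run above both mature green libraries, with 27.8 and 28.4% against 17.4 and 17.2% of the counts in the top 100 genes.

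Most of the abundant transcripts of the skin differed between the stages. FPKM, a level scaled by both transcript length and library size, was used to rank genes within a stage. The 100 genes of highest mean FPKM in green exocarp and the 100 of red exocarp had 26 genes in common. Of the green list, 71 genes fell, 17 rose and 12 were not called. Of the red list, 90 genes rose, 4 fell and 6 were not called. Over all genes tested, 32.2% fell and 29.7% rose. Each list was chosen by level at one stage, so falls in the green list and rises in the red list are partly set by the choice. A mean of at least 1 FPKM was reached by 17276 genes in green and 15739 in red exocarp, of which 14970 reached it at both stages.

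The most abundant transcript of the green skin came from a gene of chromosome 10, Solyc10g075070.3, with 8696 and 9917 FPKM in green and 1460 and 1802 FPKM in red exocarp. Its log2 fold change was −2.19 ± 0.27 (SE) (edgeR, adjusted p = 0.000126), and the stages did not overlap. Other genes of chromosome 10 ranked at 3 and 5 in green exocarp and fell as well, from 4657 and 6231 FPKM to 295 and 522 FPKM for the former and from 3606 and 4878 FPKM to 241 and 418 FPKM for the latter. SlPR10, described below, ranked at 2. The steepest fall among the 10 most abundant green transcripts was that of a gene of chromosome 6, which held 0.842% of the green counts and 0.000802% of the red ones, with 4611 and 4865 FPKM in green and 3.94 and 5.08 FPKM in red exocarp. In all, 7 of these 10 genes fell and 3 rose, and falls are partly set by the choice of genes on their green level.

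All 10 of the most abundant transcripts of the red skin rose. The first, from Solyc07g049135.1 on chromosome 7, was already the eighth in green exocarp, with 2589 and 2552 FPKM, and stood at 24811 and 28554 FPKM in red exocarp. It rose by 3.70 ± 0.14 on the log2 scale (edgeR, adjusted p = 1.56e-07). Other leading transcripts of the ripe skin were close to absent in the green one. A gene of chromosome 10 had 0.476 and 0.306 FPKM in green and 13432 and 14503 FPKM in red exocarp, where it took 2.53% of the counts. A gene of chromosome 9 went from 0.125 and 0.149 FPKM to 6832 and 7673 FPKM and took 1.36% of the red counts. Further down the list, 3 genes of chromosome 3 went from between 14.6 and 61.3 FPKM in the green libraries to between 5364 and 6119 FPKM in the red ones. These genes were chosen for their level at one stage, so a change in that direction is partly set by the choice.

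A small set of genes was detected at one stage only. At most 3 counts in both green exocarp libraries and at least 1 CPM in both red ones were found for 175 genes, and the reverse for 338 genes. Most were detected in the flesh at the same stage. Of the 175 genes detected in red exocarp, 124 (70.9%) also had a mean of at least 1 CPM in red mesocarp. At most 3 counts in both red mesocarp libraries were found for 8 of them. Of the 338 genes detected in green exocarp, 262 (77.5%) had a mean of at least 1 CPM in green mesocarp. At most 3 counts in both green mesocarp libraries were found for 10 of them. In leaves, 228 (67.5%) of the genes of green exocarp had a mean of at least 1 CPM, against 32 (18.3%) of the genes of red exocarp. The shares of all genes with such a mean in mesocarp or in leaves were not computed, so none of these percentages can be set against them. Most were weakly expressed, with a median of 4.62 CPM for the red and 3.93 CPM for the green set, and highest means of 1361 and 297 CPM. With a floor of 10 counts in place of 3 the sets held 270 and 646 genes.

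The called rise of highest fitted log2 fold change was that of Solyc08g066250.4, a gene of chromosome 8. It had 0 counts in both green exocarp libraries and 54573 and 51561 counts in the red ones, or 1361 ± 119 CPM (SD, n = 2), which is at least 17380-fold higher, taking green exocarp at the floor of 3 counts per library (edgeR, adjusted p = 0.00015). The bound takes the listed zeros as they stand, and since a fitted value against 0 depends on the prior count, the order of such genes among the largest changes cannot be told. In green mesocarp the same gene was listed at 0 in replicate 1 and at 129 in replicate 2, in red mesocarp it had 74521 and 61349 counts, and in leaves it was listed at 0. The called fall of lowest fitted log2 fold change was that of Solyc12g008650.2, a gene of chromosome 12, with 3987 and 4696 counts in green and 0 in both red exocarp libraries. Its level in green exocarp of 113 ± 13.3 CPM (SD, n = 2) makes it at least 1474-fold lower in red (edgeR, adjusted p = 9.09e-06). It had 378 and 401 counts in green mesocarp, 0 in red mesocarp, and 36 and 7 in leaves.

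The 10 rises and 10 falls of largest fitted change, taken among called genes with at least 10 TMM-scaled CPM in the higher stage and no overlap of libraries, all had 0 counts in both libraries of the lower stage. The genes that rose reached between 188 and 1361 CPM in red exocarp, and the genes that fell had been at between 47.9 and 113 CPM in green exocarp. All 20 moved in the same direction in mesocarp and were called there too. Over all genes called in exocarp, 75.4% of the rises and 73.4% of the falls had the same call in mesocarp. In leaves, all 10 of the genes that fell but 3 of the 10 that rose had over 3 counts in both libraries. Of all 35288 genes listed, 22580 had over 3 counts in leaf replicate 1 and 22505 in leaf replicate 2.

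The 12 genes that the study selected as preferentially expressed in the skin changed unequally with ripening. Of these, 5 fell (41.7%, against 32.2% of all genes tested), 2 rose (16.7%, against 29.7%) and 5 were not called. Without green replicate 2 or without red replicate 2, 3 fell and 2 rose, without red replicate 1, 3 fell and 1 rose, and with scaling to total counts 7 fell and 1 rose. Their median log2 fold change was −0.60, against 0 over all genes tested. The study chose them on these same libraries for high levels in the exocarp over the mesocarp at both stages and low levels in leaves, so their level in the skin is no finding here. The libraries of the stages did not overlap in scaled counts for 10 of the 12, near the share of 76.2% (17380 genes) over all genes tested.

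Among the genes tied to defence, SlPR10 (Solyc09g090980.3, chromosome 9), a pathogenesis-related gene of class 10, stood out by its level. It had 7523 and 8207 FPKM in green and 1692 and 1029 FPKM in red exocarp and went from rank 2 to rank 36 of all genes. Both red libraries lay below both green ones, and the log2 fold change was −2.21 ± 0.23 (edgeR, adjusted p = 4.85e-05). SlLECRK4 (Solyc09g075910.1), a lectin receptor-like kinase, had 10.3 and 31.4 FPKM in green and 6.90 and 5.88 FPKM in red exocarp. The green libraries were apart by more than the lower of them was from red. Its log2 fold change was −1.40 ± 0.42 (edgeR, adjusted p = 0.0192), and −0.32 without green replicate 2 (edgeR, adjusted p = 0.117). The call was also lost without red replicate 1 (−1.50, edgeR adjusted p = 0.0621) and without red replicate 2 (−1.28, edgeR adjusted p = 0.0999). SlSNL6 (Solyc06g061280.3), named after a cinnamoyl-CoA reductase-like gene known from rice defence, had 26.1 and 65.8 FPKM in green and 13.9 and 29.7 FPKM in red exocarp. Its libraries overlapped and it was not called, with a log2 fold change of −0.76 ± 0.45 (edgeR, adjusted p = 0.178). The value was 0.10 without green replicate 2 and −1.30 without green replicate 1 (edgeR, adjusted p = 0.0088).

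Of the genes of transport and surface lipids, SlABCG10 fell and SlWSD1 was not called. SlABCG10 (Solyc04g070970.4, chromosome 4), an ABC transporter of subfamily G, a group that includes exporters of cuticle lipids, had 288 and 282 FPKM in green and 38.9 and 18.6 FPKM in red exocarp. The stages were well apart, with a log2 fold change of −2.99 ± 0.31 (edgeR, adjusted p = 8.79e-05). SlWSD1 (Solyc01g011430.4), whose Arabidopsis namesake makes wax esters, had 9.57 and 7.94 FPKM in green and 5.57 and 6.19 FPKM in red exocarp. Its log2 fold change was −0.25 ± 0.31 (edgeR, adjusted p = 0.517).

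Of the genes tied to calmodulin and the cytoskeleton, SlACTIN fell, SlKIN5D narrowly passed the threshold and SlIQM2 was not called. SlIQM2 (Solyc01g005800.3), named for a calmodulin-binding IQ motif, had 6.33 and 7.34 FPKM in green and 3.91 and 4.23 FPKM in red exocarp and was not called at −0.43 ± 0.27 on the log2 scale (edgeR, adjusted p = 0.206). SlKIN5D (Solyc09g007030.3), a kinesin by its name, a motor on microtubules, had 6.64 and 7.10 FPKM in green and 8.13 and 6.76 FPKM in red exocarp. Its FPKM overlapped between stages while its scaled counts did not, and the rise of 0.44 ± 0.16 was close to the threshold (edgeR, adjusted p = 0.0465). It was no longer called under 8 of the 11 alternatives that gave a p-value. These included the stricter threshold and the fits without green replicate 1 (0.36) and without red replicate 1 (0.32). Its log2 fold change was 0.12 with scaling to total counts. SlACTIN (Solyc03g078400.3, chromosome 3), the reference gene of the RT-qPCR in the study, had 485 and 446 FPKM in green and 192 and 178 FPKM in red exocarp. It was lower in both red libraries, fell by 1.01 ± 0.08 on the log2 scale (edgeR, adjusted p = 9.66e-06), and was lower in red under every scaling tried, with values from −1.33 to −0.95 over all alternatives fitted.

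Among the candidates the study expands only the name of SlPR10, and the products given above for other candidates are read from their names. The remaining 5 candidates included SlBCAD, which fell, and SlSTK, which rose. SlBCAD (Solyc06g059840.4, chromosome 6) had 67.3 and 54.5 FPKM in green and 5.44 and 6.02 FPKM in red exocarp, a log2 fold change of −3.08 ± 0.23 (edgeR, adjusted p = 5.62e-06). SlSTK (Solyc08g061250.3, chromosome 8) had 10.1 and 9.15 FPKM in green and 22.6 and 20.8 FPKM in red exocarp, a log2 fold change of 1.49 ± 0.28 (edgeR, adjusted p = 0.00149). Neither gene overlapped between stages. SlFP (Solyc01g105620.4) had 7.65 and 21.6 FPKM in green and 5.32 and 5.90 FPKM in red exocarp, and its log2 fold change of −1.07 ± 0.41 (edgeR, adjusted p = 0.0499) was −0.08 without green replicate 2 (edgeR, adjusted p = 0.829). It was not called without red replicate 1 (−0.98) or without red replicate 2 (−1.14) either. SlHH3 (Solyc05g032680.4), with 56.5 and 64.4 FPKM in green and 46.9 and 36.0 FPKM in red exocarp, was not called at −0.23 ± 0.15 (edgeR, adjusted p = 0.229). SlTSI1 (Solyc09g090990.2), with 14.0 and 13.0 FPKM in green and 15.2 and 11.4 FPKM in red exocarp, was not called at 0.30 ± 0.31 (edgeR, adjusted p = 0.44). The identifier of SlTSI1 follows that of SlPR10, and how reads that match both were counted is not given in the sources used here.

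**Figure D3:**
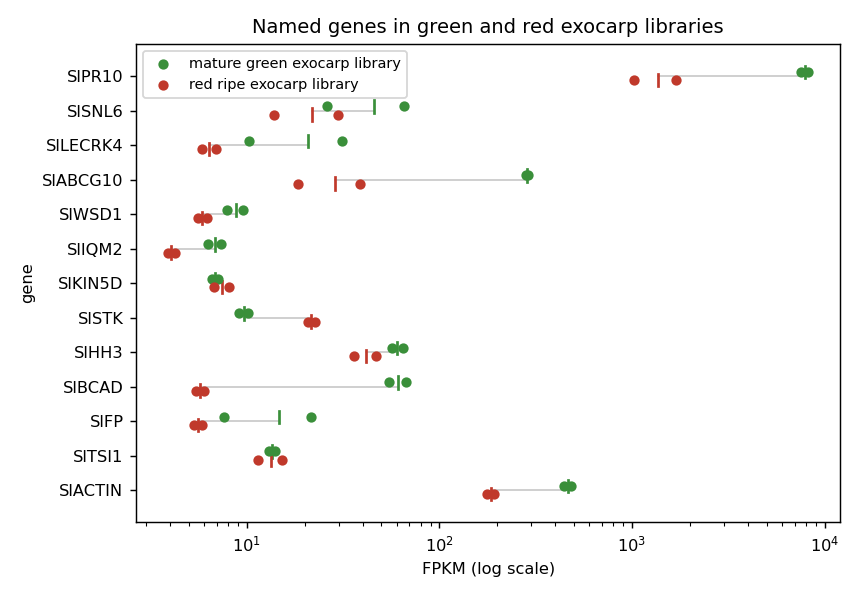
FPKM (x axis, log scale) of the 12 candidate genes and SlACTIN (y axis) in the 2 mature green (green) and 2 red ripe (red) exocarp libraries. Each point is a library, each short bar the mean of a stage, and grey lines join the means. SlPR10, SlABCG10, SlBCAD and SlACTIN are lower in both red libraries by a wide margin, SlSTK is higher in both, and the green points of SlSNL6, SlLECRK4 and SlFP lie far apart.

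The flesh under the skin ripened over the same stages, and the comparison of both tissues asks which changes of the skin differ from those of the flesh. In mesocarp 13697 genes (60.1%) were called, 6441 higher and 7256 lower in red. Of the genes that rose in exocarp, 5102 (75.4%) also rose in mesocarp, which is 79.2% of those that rose there. Of the genes that fell in exocarp, 5390 (73.4%) also fell in mesocarp, or 74.3% of those that fell there. The log2 fold changes of both tissues, which share no library, had a Pearson correlation of 0.69 and a Spearman correlation of 0.72 across the 22801 genes, and genes are not independent replicates. Without genes listed at 0 in all exocarp or in all mesocarp libraries, 21217 genes remained with a Pearson correlation of 0.73.

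The difference between the tissues in ripening change was itself called for 4866 genes (21.3%). The difference, exocarp minus mesocarp, was positive for 2483 of these genes and negative for 2383. Of the 4866 genes, 1482 rose in exocarp with a larger rise than in mesocarp and 325 with a smaller one. Falls were larger in exocarp for 1731 genes and smaller for 541, and 787 genes were not called in exocarp. The split into larger and smaller changes was made among genes called in exocarp, a choice that favours larger changes there. Opposite calls were rare, with 226 genes that rose in exocarp and fell in mesocarp and 169 that did the reverse. The difference was called for all 395, which follows largely from choosing genes with opposite calls. Rises of at least 2-fold in exocarp that were larger than in mesocarp and not called there were found for 252 genes, and such falls for 343. The number of differences depended on the libraries of both tissues. It was lower when any mesocarp library or either red exocarp library was left out, and higher without either green exocarp library.

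Several of the most abundant skin transcripts changed more in the skin than in the flesh. Solyc07g049135.1 rose by 3.70 on the log2 scale in exocarp and 2.16 in mesocarp, and the difference was called (edgeR, adjusted p = 0.000911). The chromosome 6 gene with the steepest fall among the 10 most abundant green transcripts had a log2 fold change of −9.71 in exocarp and −4.03 in mesocarp (edgeR, adjusted p of the difference = 5.06e-06). A gene of chromosome 11, the ninth of the red skin, rose from 1408 and 1171 FPKM to 4226 and 3383 FPKM in exocarp, at 1.88 on the log2 scale, against −0.52 in mesocarp (edgeR, adjusted p of the difference = 0.00014). By contrast the log2 fold change of Solyc10g075070.3 was −2.19 in exocarp and −3.39 in mesocarp, a difference that was not called (edgeR, adjusted p = 0.053). The genes at rank 3 and 5 in green exocarp had −3.42 and −3.37 in exocarp against −4.62 and −4.54 in mesocarp, differences not called either. All these genes were chosen for their level in exocarp, which favours a larger change there. Over all genes tested, the difference was called for 21.3%.

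Of the 12 candidates, only SlTSI1 and SlKIN5D had a called difference between the tissues, against 21.3% of all genes tested. SlTSI1 had a log2 fold change of 0.30 in exocarp and −2.07 in mesocarp, a difference of 2.37 ± 0.57 (edgeR, adjusted p = 0.0207). SlKIN5D had 0.44 in exocarp and −0.78 in mesocarp, a difference of 1.22 ± 0.32 (edgeR, adjusted p = 0.0294). Both were scarce in the flesh, with means of 1.37 FPKM in green and 0.206 FPKM in red mesocarp for SlTSI1, and of 0.238 and 0.102 FPKM for SlKIN5D. The difference lost its call without red exocarp replicate 1 for both genes, without green mesocarp replicate 1 or red mesocarp replicate 2 for SlTSI1, and without green mesocarp replicate 2 or either red mesocarp library for SlKIN5D. The falls of SlPR10, SlABCG10 and SlBCAD were called in mesocarp too, at −3.03, −4.28 and −4.17 on the log2 scale, and the differences of 0.82, 1.29 and 1.09 were not called (edgeR, adjusted p = 0.109, 0.146 and 0.295). For SlPR10 and SlABCG10 the difference was called without red exocarp replicate 2 (1.13 and 1.72) and with DESeq2 (adjusted p = 0.0301 and 0.019), and for SlBCAD without red mesocarp replicate 1 (5.68). Other differences gained a call too, that of SlSTK, 1.60 (adjusted p = 0.143 in edgeR), with DESeq2 (adjusted p = 0.026) and without green mesocarp replicate 2 (2.36), and those of SlLECRK4 (−1.32) and SlFP (−1.09) without green exocarp replicate 1 (−1.93 and −1.67). SlACTIN fell by 0.82 in mesocarp on the log2 scale, and the difference of −0.19 ± 0.11 was not called (edgeR, adjusted p = 0.302).

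**Figure D4:**
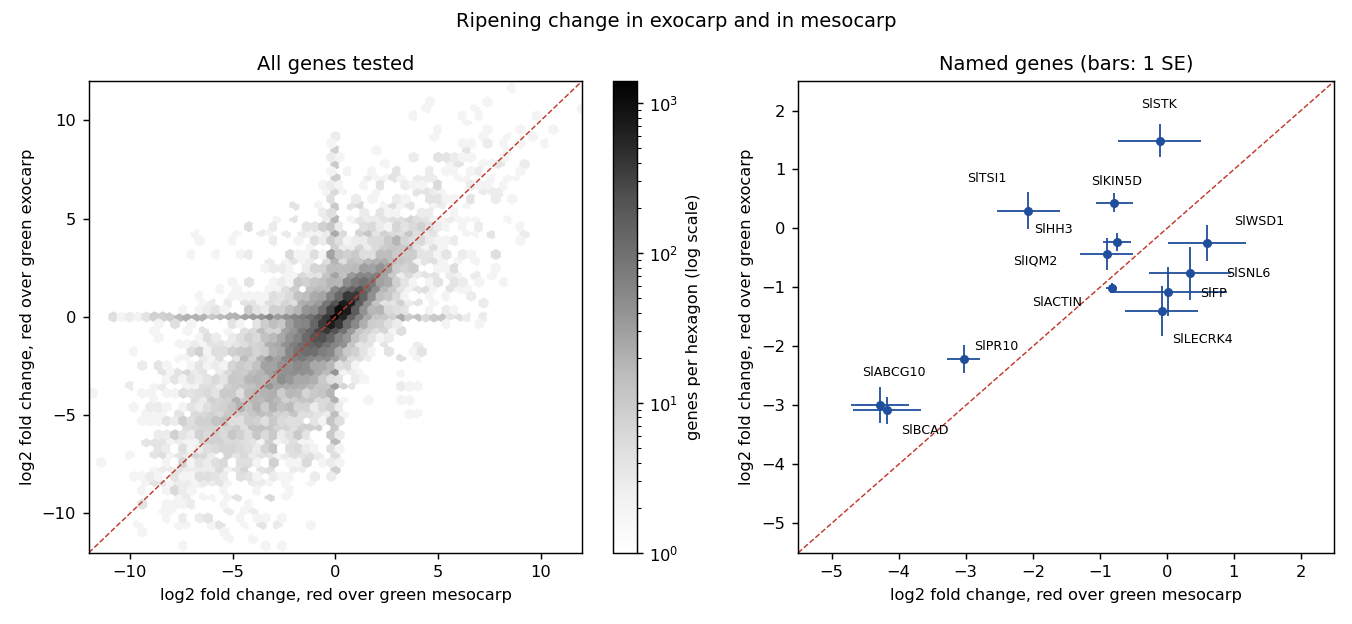
Log2 fold change of red over green in exocarp (y axis) against that in mesocarp (x axis). The left panel shows 22678 of the genes tested as hexagons shaded by their number, with 123 genes beyond its limits, and the right panel shows the 13 named genes with bars of 1 SE. Dashed lines mark equal change, the spikes at 0 include genes listed at 0 throughout 1 tissue, and 8 of the 13 named genes lie above it, with the difference called for SlTSI1 and SlKIN5D.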

How the data were processed

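Poly(A) RNA of 10 libraries was sequenced, 2 for each of 5 tissues. The authors deposited raw counts per gene, and the deposited FPKM values scale the same data by the length of the transcript and the size of the library. HISAT2 is listed in the submitters' processing notes. The counting tool, genome build, annotation, strand setting and treatment of reads that match several genes are not given in the sources used here. Such reads make genes with close copies uncertain.

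Samples were grouped by tissue and stage from the labels, and stages in days come from the methods of the study. After filterByExpr (22801 genes kept) and TMM scaling, a single quasi-likelihood model of the 10 libraries was fitted in edgeR 4.0.16 under R 4.3.3 (5 residual degrees of freedom, biological coefficient of variation 0.153). The contrasts were red against green exocarp, red against green mesocarp, and their difference. P-values were adjusted over all genes tested, and calls were made under 0.05. Standard errors were derived from the fold change and its F statistic. An exact permutation test with 2 libraries against 2 cannot pass that threshold and was not used. The script was tested on simulated data. Alternatives were DESeq2 1.42.0, DESeq2 size factors, total counts, no filter, exocarp libraries alone (for the difference, exocarp and mesocarp alone), a replicate block, a stricter threshold, FPKM ratios with pseudocounts of 0.1 and 1, a floor of 10 counts, and each library left out in turn. A further alternative, without genes listed at 0 in any exocarp library, was chosen after seeing the data.

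The named genes are the 12 candidates and SlACTIN, and the leading gene of the 10 largest changes and of the 10 most abundant genes in each direction. No other identifier matched a name, since none of the 34075 matched the RefSeq table at hand, so pathway lists drawn up for this comparison were not used. Genes and lists were chosen with earlier results of these data known. Python 3.11.15 with matplotlib 3.10.9 drew the figures.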

Additional observations from a re-analysis of the deposited data

Results flagged for a closer look

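The ripening change of SlTSI1 and of SlKIN5D differed between exocarp and mesocarp by a test of the difference itself. Such a difference was called for 21.3% of all genes tested. The difference, exocarp minus mesocarp, was 2.37 on the log2 scale for SlTSI1 (edgeR, adjusted p = 0.0207) and 1.22 for SlKIN5D (edgeR, adjusted p = 0.0294). Over the alternatives it lay between 1.80 and 3.61 for SlTSI1 and between 0.89 and 1.48 for SlKIN5D, with adjusted p-values from 0.00136 to 0.0872 and from 0.0204 to 0.133. Both genes were chosen by the study on these libraries for their exocarp to mesocarp ratios at both stages, and the part of that choice in the difference was not tested.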

How the results depend on the processing

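The main counts of calls stayed within 1.5 times of 14108 under DESeq2 (13907), DESeq2 size factors (14030), total counts (14061), no filter (13882), the exocarp libraries alone (11884), and, chosen after seeing the data, without genes listed at 0 in any exocarp library (12659). Leaving out 1 exocarp library gave 12571 to 13778 calls, and the lone library left in a tissue was then assumed to vary like those of other tissues. At an adjusted p under 0.01 and at least 2-fold, 7602 genes were called, 3046 higher and 4556 lower, and the tissue difference was called for 1784. That difference ranged from 3067 to 6158 genes when 1 library was left out, lowest without green mesocarp replicate 2 and highest without green exocarp replicate 1. With a floor of 10 counts the genes detected at one stage numbered 270 in red and 646 in green. The replicate block gave 13609 calls (6540 higher, 7069 lower) and 4373 differences, and SlKIN5D (0.44, edgeR adjusted p = 0.0629) and SlFP (−0.94, edgeR adjusted p = 0.0603) lost their call under it. Deviations of same-numbered green and red exocarp libraries correlated at 0.108 over 18797 genes, and no source says that a number marks shared fruit, so libraries were not taken as paired. The log2 fold change of SlTSI1 was −0.0198 with total counts, and as an FPKM ratio −0.0206 and −0.0193 with pseudocounts of 0.1 and 1. That of SlSNL6 ranged from −1.41 to 0.10 when 1 library was left out, positive without green exocarp replicate 2. The tissue difference ranged from −0.16 to 2.36 for SlSTK, negative without green mesocarp replicate 1, and from −1.56 to 0.21 for SlWSD1, positive without red mesocarp replicate 2. Of the 11 alternatives that gave a p-value, SlFP lost its call under 7 and SlLECRK4 under 5, in both cases including the stricter threshold and the fits without green exocarp replicate 2 or either red exocarp library, and with total counts SlIQM2 (−0.75, edgeR adjusted p = 0.0389) and SlHH3 (−0.54, edgeR adjusted p = 0.0137) were called lower. The causes were not tested. With 2 libraries per tissue the p-values measure only the spread between these samples. In the main fit that spread was estimated over all 10 libraries together. Replicates of green exocarp were less alike than those of other tissues, so the shared estimate may be too small for it, which was not tested.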

Other observations

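Genes that changed strongly with ripening of the skin were in places neighbours by identifier. Runs of at least 4 consecutive tested identifiers, all called and changed at least 8-fold in the same direction, a rule chosen after seeing the data, numbered 21, of which 9 rose and 12 fell, with 95 genes in all. The longest was a run of 9 genes on chromosome 2 that fell, with 1123 FPKM summed over the genes in green and 13.8 FPKM in red exocarp, and all 9 fell in mesocarp as well. A run of 4 genes on chromosome 8, which holds Solyc08g066250.4, rose from 0.0600 to 3619 summed FPKM, and 3 of these rose in mesocarp. On chromosome 5, 4 neighbours fell from 1685 to 10.7 summed FPKM. Of the 95 genes, 87 were called in the same direction in mesocarp. Over all genes called in exocarp, at any fold, this held for 75.4% of the rises and 73.4% of the falls. Neighbours can be close copies that share reads, and the part of shared reads in these runs was not tested.

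The share of genes called differed little between the 12 chromosomes, from 61.4 to 65.2%. Of the 196 genes tested on no chromosome, 8.67% were called, and of the 820 loci without annotation, 47.9%. Both sets were weakly expressed in exocarp, with medians of 0.245 and 1.04 TMM-scaled CPM, against 10.2 to 14.6 CPM on the chromosomes.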
